A study of Populus tremula with 16 samples.

Results

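The secondary wall cellulose synthases of aspen leaves are described here through 5 gene IDs of the deposited tables: CesA4 (Potri.002G257900), CesA7-A (Potri.006G181900), CesA7-B (Potri.018G103900), CesA8-A (Potri.011G069600) and CesA8-B (Potri.004G059600). They were taken by name from the poplar gene family, not by their values, and are 5 of the 41335 IDs with raw counts. Earlier results of these data were known when they were chosen. The study followed leaves of Populus tremula, the European aspen, through the autumn of 2011, with 1 RNA sequencing library per collection date and no treatment or genotype contrast in the labels. The dates were divided by the calendar into an early period (27 July and 5, 19 and 31 August, n = 4), a middle period (2, 5, 9, 11, 13 and 15 September, n = 6) and a late period (18, 22, 26 and 28 September and 1 October, n = 5). The library of 19 September was left out under the rule that chose the 5 genes. In a check of the counts, none of the 18378 IDs with a count in it had more counts there than on 18 September. The labels do not say how many trees or leaves went into a library, so single dates serve as replicates. The p-values thus reflect the scatter from date to date, and they treat neighbouring dates as independent, which was not tested.

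Cellulose synthases sit in the plasma membrane in rosette complexes and spin glucose chains into cellulose microfibrils. In Arabidopsis, CesA4, CesA7 and CesA8 build the thick secondary wall of xylem vessels and fibres, and loss of any of them gives collapsed vessels, whereas other members of the family build the thin primary wall of growing cells. Poplar carries CesA7 and CesA8 as pairs of duplicated genes. In a leaf, secondary walls lie mainly in the xylem and fibres of the veins, and most of that wall is laid down while the blade expands. In whole leaf RNA, fewer vein cells and less RNA per cell cannot be told apart.

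All 5 genes had few counts in these leaves, and CesA4 and CesA8-B were at the edge of detection. Over the 15 libraries CesA8-A had 100 counts, CesA7-B had 46, CesA7-A had 33, and CesA4 and CesA8-B had 2 each. These are 183 counts in all, in libraries of 719419 to 6729131 counts. Counts depend on transcript length, which was not used here, so they are not a ranking of the genes by level. Of the 30299 IDs with any count in these libraries, 50.9% had fewer summed counts than CesA8-A, 39.5% fewer than CesA7-B, 35.1% fewer than CesA7-A and 6.84% fewer than CesA4 or CesA8-B. The median of those IDs was 93 counts. Only CesA8-A passed the filter on low counts (edgeR's filterByExpr), so CesA7-A and CesA7-B were tested in a fit without a filter. For CesA4 and CesA8-B, with 2 counts each, that fit made no call, and they are described by their counts. The authors' normalised table, which lists 19769 IDs, holds CesA7-A and CesA8-A and not the other 3.

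**Figure D1:**
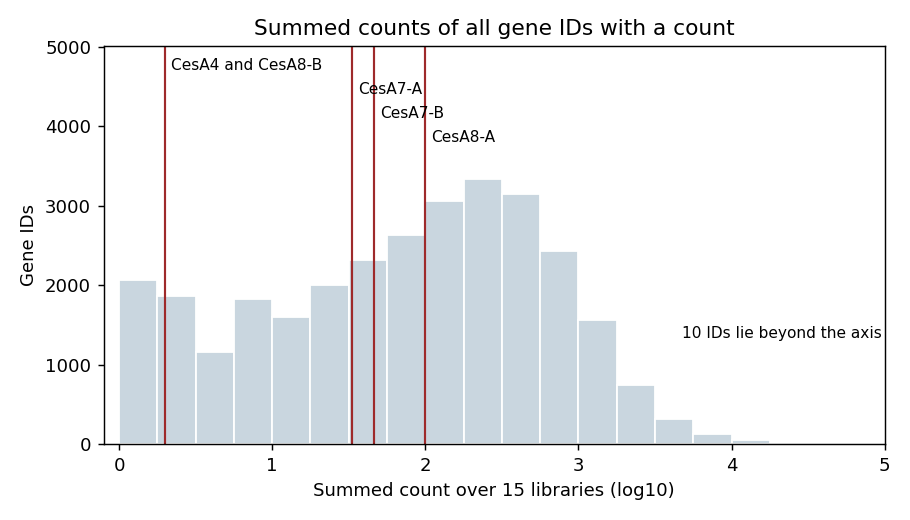
Histogram of the summed count over 15 libraries (x axis, log10) for the 30299 gene IDs with a count (y axis, number of IDs), with red lines at the 5 cellulose synthases. CesA4 and CesA8-B lie near the left end at 2 counts, and CesA8-A at 100 counts lies close to the median of 93.

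CesA4, the class without a duplicate in this gene set, was seen in 2 of 15 libraries, with 1 count on 22 September and 1 count on 26 September. It had 0 counts in the early period, which allows up to 3 counts or 0.189 CPM (counts in 1000000 of the library size, which was scaled by edgeR's TMM method, the trimmed mean of log ratios). It had 0 counts in the middle period as well, which allows up to 0.158 CPM. The 2 late counts correspond to 0.124 CPM, with a 95% exact Poisson interval of 0.015 to 0.449 CPM. A change of CesA4 over the autumn was not detectable at this depth. Such intervals and limits cover counting error only.

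CesA8-B, the duplicate of CesA8-A, was likewise seen in 2 of 15 libraries, with 1 count on 5 August and 1 count on 22 September. Summed levels were 0.0632 CPM early and 0.0621 CPM late, and 0 counts in the middle period allow up to 0.158 CPM. Nearly all CesA8 counts therefore fell on CesA8-A, which took 22 of 23 early counts, 31 of 31 middle counts and 47 of 48 late counts. As shares these are 95.7% (95% Wilson interval 79 to 99.2%), 100% (89 to 100%) and 97.9% (89.1 to 99.6%). These intervals overlap. The split within a pair is uncertain, since the sources used here do not say how reads matching both copies were counted.

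CesA8-A, the CesA8 copy that carried those counts, was detected on all 15 dates and was higher in late leaves. In the early period it had 7, 4, 8 and 3 counts in date order, which are 1.77, 0.888, 2.03 and 0.877 CPM. Its middle libraries held 6, 7, 10, 1, 6 and 1 counts, which are 1.27, 1.42, 2.09, 1.25, 2.08 and 1.10 CPM in date order. Its late libraries held 12, 10, 11, 8 and 6 counts, which are 2.49, 2.15, 2.94, 4.61 and 5.17 CPM. Every late library lay above every early and every middle library, and the last 2 dates were the highest. The margin to the middle period was thin, with 2.15 CPM on 22 September against 2.09 on 9 September, each from 10 counts. Over all 15 dates its counts scattered 1.58 times as much as counting alone would give (Pearson's statistic per degree of freedom). Without the last 2 dates the scatter was 0.835 times that of counting. In the authors' normalised table the early values of CesA8-A ran from 0.899 to 2.02, the middle ones from 1.08 to 2.15 and the late ones from 2.22 to 5.06. Counting error was wide for single dates: the exact Poisson interval ran from 1.9 to 11.3 CPM on 1 October, from 1.99 to 9.09 CPM on 28 September and from 1.47 to 5.26 CPM on 26 September, and these overlap.

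**Figure D2:**
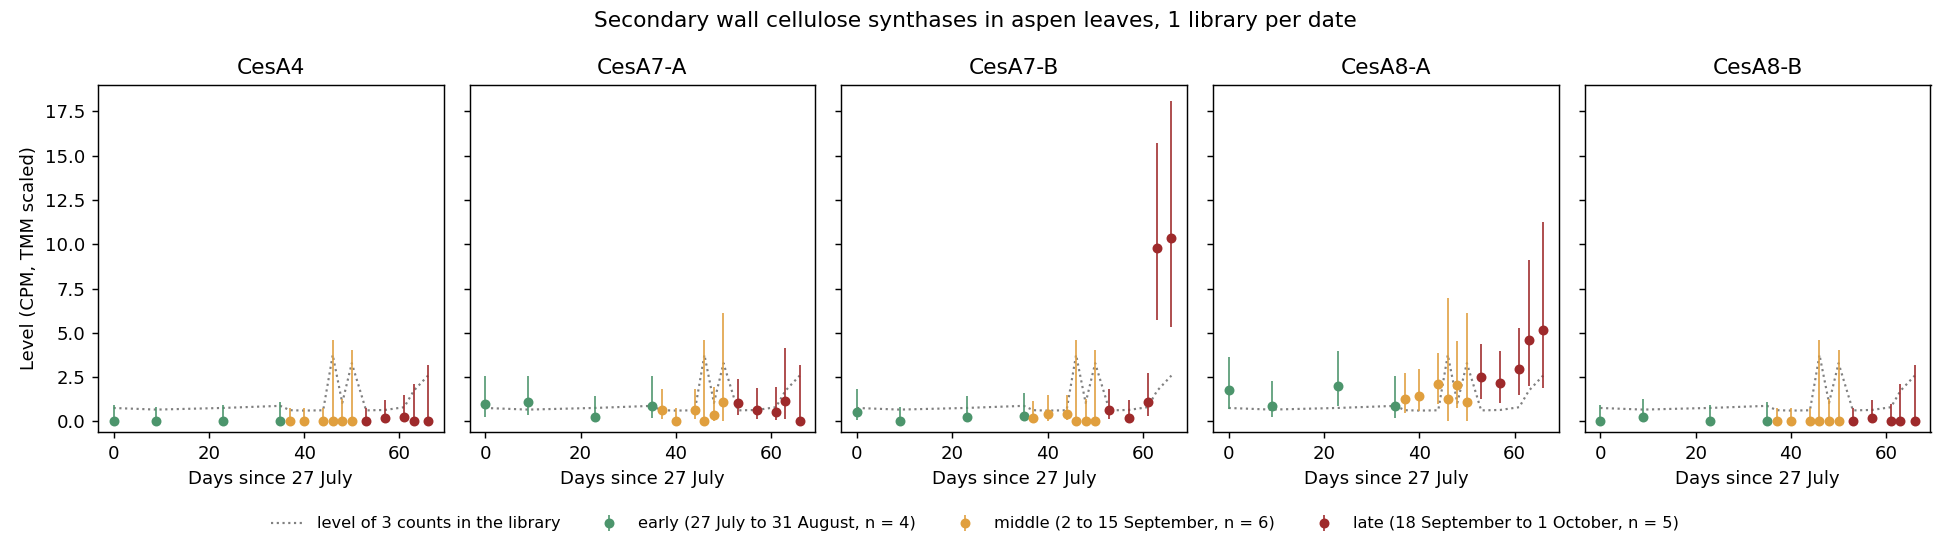
Level of each gene (y axis, CPM after TMM scaling) against days since 27 July (x axis), 1 point per library, coloured by period, with 95% exact Poisson intervals of the count. The dotted line is the level that 3 counts would give in each library. CesA7-B stands at 9.8 and 10.3 CPM on the last 2 dates, CesA8-A reaches 5.17 CPM and CesA7-A reaches 1.15 CPM. CesA4 and CesA8-B lie below the dotted line on every date. CesA8-A lies below it on 11 and 15 September, with 1 count each.

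CesA8-A averaged 1.39 ± 0.595 CPM over the 4 early libraries, 1.54 ± 0.44 CPM over the 6 middle ones and 3.47 ± 1.34 CPM over the 5 late ones (mean ± SD). It reached the filter's cutoff of 2.30 CPM of library totals in all 5 late libraries and on 13 September, and in none of the 4 early ones, so it entered the filtered fit through the group where it is high. Its values are therefore given from both fits, and the p-values of the filtered fit are not taken as support for a rise. Without a filter, the late against early change was 1.15 log2 units (SE 0.42, 2.21-fold), which passed edgeR's quasi-likelihood test with an adjusted p of 0.0332, and with the filter it was 1.16 (SE 0.38, adjusted p = 0.0145). In that comparison 37.1% of 30299 IDs were called without a filter, 17% as higher, and 58.2% of 15583 with it, 29.3% as higher, while groups did not overlap for 46% of the filtered IDs. A rise of this kind was thus common among the leaf's genes. The late against middle change did not pass without a filter, with 0.89 log2 units (SE 0.39, edgeR adjusted p = 0.0945), and passed with it at 0.95 (SE 0.35, adjusted p = 0.0345). There 26.1% and 47.7% of IDs were called, 13.2% and 24.4% as higher, and 23.2% of the filtered IDs did not overlap. The time course, a spline over the days, did not pass without a filter (edgeR adjusted p = 0.0569) and passed with it (adjusted p = 0.0159), in fits that called 42.1% and 62.9% of IDs. Between the early and the middle period it passed in neither fit, with 0.26 log2 units (SE 0.43, edgeR adjusted p = 0.853) and 0.21 (SE 0.39, adjusted p = 0.834), where 2.34% and 4.55% of IDs were called. In the filtered fit, none of these calls held without 28 September and 1 October (late against early 0.83 log2 units, edgeR adjusted p = 0.0883, late against middle 0.61, adjusted p = 0.212, time course 0.84, adjusted p = 0.322). The unfiltered late against early call was not tried without those dates. The filtered late against early call also ended with DESeq2 (adjusted p = 0.0522), with period limits 1 date earlier (0.0922), without 5 August (0.0626) or without 31 August (0.0578). The filtered late against middle call ended with DESeq2 (0.0848), RLE scaling (0.0525), upper quartile scaling (0.11), period limits 1 date later (0.0933) or without any 1 of 2, 5, 11, 26 and 28 September and 1 October (0.0523 to 0.0983), and the time course call with upper quartile scaling (0.0786), without 28 September (0.0766) or without 1 October (0.0829).

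CesA7-A, the CesA7 copy with counts in all early libraries, showed no change that passed a test. It had 4, 5, 1 and 3 counts in the early libraries, 3, 0, 3, 0, 1 and 1 in the middle ones and 5, 3, 2, 2 and 0 in the late ones. Summed counts were 13, 8 and 12, or 0.821, 0.420 and 0.745 CPM. Early, middle and late libraries overlapped. The late to early ratio of summed counts was 0.907, with a 95% exact interval of 0.378 to 2.16, so neither a fall to the lower bound nor a rise to the upper one could be told from no change at this depth. The late against early change in the fit without a filter was -0.15 log2 units (SE 0.69, edgeR adjusted p = 0.906), and with library totals alone as the scaling it was 0.69 (adjusted p = 0.444). The middle against early change was -0.84 (SE 0.71, edgeR adjusted p = 0.613), the late against middle change was 0.69 (SE 0.71, adjusted p = 0.491), and the time course had an adjusted p of 0.653. The scatter of its counts over the 15 dates was 0.753 times that of counting alone (Pearson's statistic per degree of freedom).

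CesA7-B, the other CesA7 copy, was near 0 until 26 September and then stood far higher on the last 2 dates. It had 2, 0, 1 and 1 counts in the early libraries and 1, 2, 2, 0, 0 and 0 in the middle ones. The late libraries held 3, 1, 4, 17 and 12 counts, and the libraries of 28 September and 1 October were shallow, with 1162665 and 756966 counts in all. These 2 libraries also stood apart in composition: 62.5% and 67.6% of their counts lay outside the 10 most abundant IDs, against 15.9 to 32.5% in the other 13. The part of depth and composition in the results of CesA7-B and CesA8-A was not tested. As levels, 18 September had 0.622 CPM, 22 September 0.215, 26 September 1.07, 28 September 9.80 and 1 October 10.3. Of these, 22 September lay within the early range of 0 to 0.505 CPM, 18 and 26 September lay somewhat above it, and the last 2 dates lay far above every other date. Over those 2 dates summed counts were 29 against 4 in the early period, a depth-scaled ratio of 39.7 (95% exact interval 13.9 to 155). Against 18 to 26 September, with 8 counts, the ratio was 16.6 (7.38 to 41.9). The split of the late period was chosen after its values were seen, so these ratios are a description. Of the 21463 IDs with at least 20 summed counts, 3.3% had a fold over the early period at least as large on the last 2 dates, with early counts set to at least 3.

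**Figure D3:**
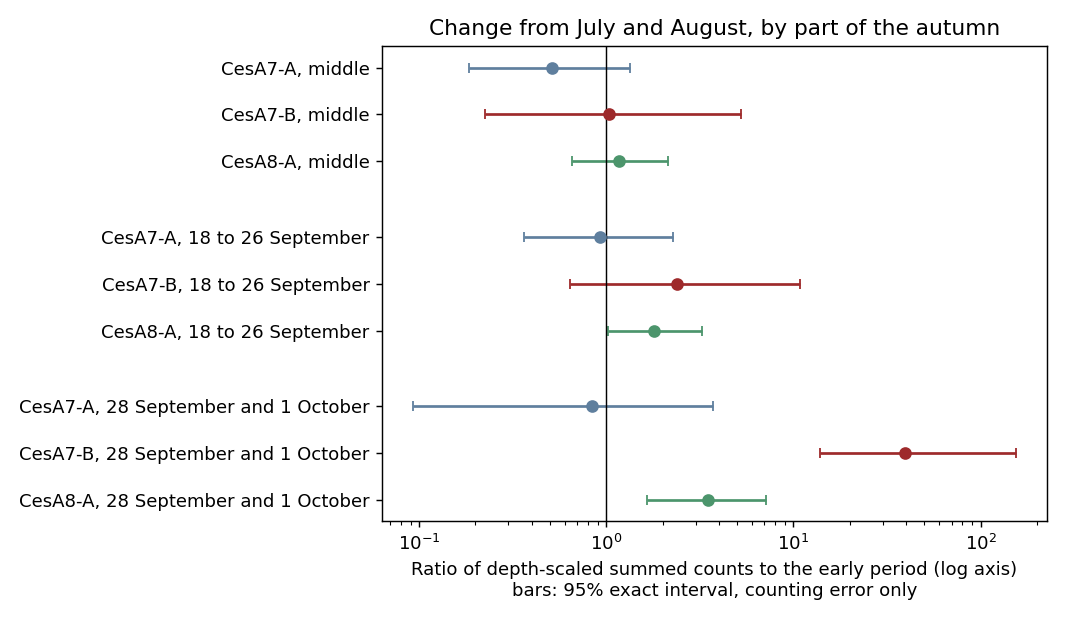
Ratio of depth-scaled summed counts to the early period (x axis, log scale) for CesA7-A, CesA7-B and CesA8-A in the middle period, on 18 to 26 September and on 28 September and 1 October, with 95% exact intervals that cover counting error only. The CesA7-B interval on the last 2 dates, 13.9 to 155, lies above the intervals of CesA7-A (0.0922 to 3.72) and CesA8-A (1.65 to 7.12) on the same dates. Of the 21463 IDs with at least 20 summed counts, 18.6% had a fold at least that of CesA8-A on these dates, and 3.3% at least that of CesA7-B. Early counts were set to at least 3 for these shares.

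CesA7-B passed edgeR's test in the fit without a filter. The late against early change was 3.48 log2 units (SE 0.95, 11.1-fold, adjusted p = 0.00519), in a comparison that called 37.1% of 30299 IDs, 17% as higher. The late against middle change was 3.43 log2 units (SE 0.88, edgeR adjusted p = 0.00515), where 26.1% of IDs were called, 13.2% as higher. From the early to the middle period the change was 0.04 (SE 1.07, edgeR adjusted p = 1), where 2.34% of IDs were called. The time course was called with an edgeR adjusted p of 5.64e-06, in a fit that called 42.1% of IDs. These calls rest on the last 2 dates: without both, the late against early change was 1.23 log2 units (adjusted p = 0.304), the late against middle change 1.18 (adjusted p = 0.367) and the time course had an adjusted p of 0.557. Without 28 September alone the late against early change was 2.81 (adjusted p = 0.0264) and the late against middle change 2.77 (adjusted p = 0.0299). Over all 15 dates the scatter of CesA7-B counts was 20.5 times that of counting, and over the other 13 it was 0.886 times.

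Within the CesA7 pair, most early counts were CesA7-A and most counts of the last 2 dates were CesA7-B. CesA7-A held 13 of 17 counts of the pair early (76.5%, 95% Wilson interval 52.7 to 90.4%), 8 of 13 in the middle period (61.5%, 35.5 to 82.3%) and 10 of 18 on 18 to 26 September (55.6%, 33.7 to 75.4%). On 28 September and 1 October it held 2 of 31 (6.45%, 1.79 to 20.7%), but, as for the ratios, these 2 dates were set apart after their values were seen, so the low share is a description. Taken per library, the share averaged 72.9 ± 20.8% over the 4 early libraries, 67 ± 41.2% over 5 middle ones (11 September had no CesA7 count) and 36.3 ± 32.3% over the 5 late ones (mean ± SD). The late and early means did not differ beyond the scatter of single libraries (two-sided exact permutation test, p = 0.111, adjusted 0.543 over 15 tests of shares). Nor did the middle and early means (exact permutation p = 0.905, adjusted 0.974) or the late and middle means (exact permutation p = 0.246, adjusted 0.615). A difference between the CesA7 copies in their course was therefore not shown by the test over libraries, where a library with 1 count weighs as much as one with 19. With 5 late and 4 early libraries, even full separation could not have passed the adjustment over 15 tests by itself. The adjusted values thus cannot decide whether the copies differed.

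**Figure D4:**
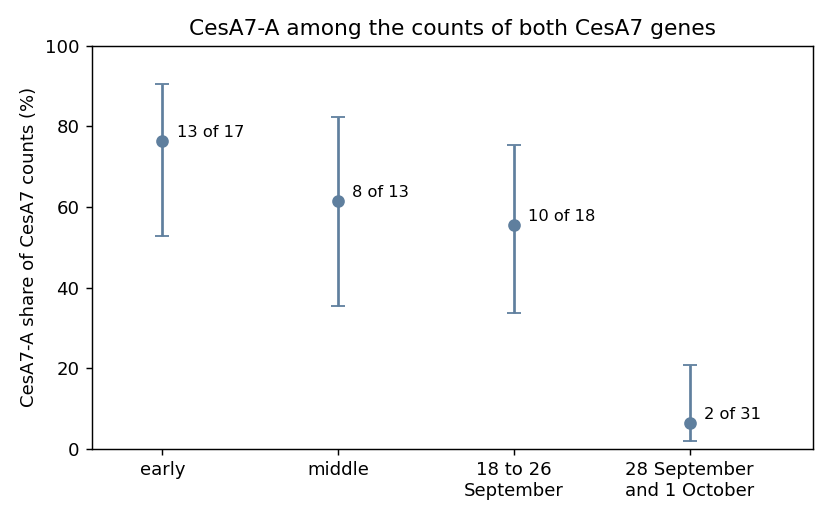
Share of CesA7-A among the counts of both CesA7 genes (y axis, percent) in the early and middle periods and in both parts of the late period (x axis), with 95% Wilson intervals and the counts behind each point. The share lies between 55.6% and 76.5% up to 26 September and at 6.45% on the last 2 dates.

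Among the 5 genes as a whole, the CesA7 pair held 17 of 40 counts early, 13 of 44 in the middle period and 49 of 99 late, and the rest fell almost wholly on CesA8-A. On the last 2 dates the CesA7 pair held 31 of 45 counts and CesA4 held 0, which allows a share of up to 7.87% by the Wilson interval. None of the 15 share tests passed, and the lowest p was that of the CesA8 pair, late against middle (exact permutation p = 0.0866, adjusted 0.543). With so few libraries per period, even full separation in a single test could not have passed the adjustment by itself. The CesA4 share was 0 in every early and every middle library, so the test between those periods could show nothing. That none passed therefore does not decide whether the shares changed. The 2 genes that rose, CesA7-B and CesA8-A, had the highest r of any pair: their log2 CPM over the 15 libraries had a Pearson r of 0.86, the rank of CesA7-B in likeness to CesA8-A was 563 among 15582 IDs, and the rank of CesA8-A in likeness to CesA7-B was 1004. Both are highest on 28 September and 1 October, and without these 2 dates r was 0.62 over 13 libraries. Over those 13 the counts scattered no more than counting alone would give, 0.886 times for CesA7-B and 0.835 times for CesA8-A. That r is therefore not read as a relation, and its rank among all IDs was not computed. CesA7-A and CesA7-B had an r of -0.09, and CesA4 with CesA8-A had an r of 0.22, both from counts too sparse to be read as a relation.

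The IDs most like the mean standardised profile of the 5 genes were Potri.001G184100 (r = 0.92), Potri.006G004700 (r = 0.91) and Potri.006G147800 (r = 0.90), over 15 libraries. The next were Potri.001G455700, Potri.009G084800, Potri.017G152700, Potri.001G094200, Potri.005G116400, Potri.001G237000 and Potri.006G062800, with r from 0.88 to 0.90. The sources used here do not pair these IDs with gene names. Potri.009G084800 changed most among them, from 227 early to 2607 late counts, or 3.80 log2 units. These IDs were picked by likeness over the same libraries, so a test of their change would be no support, and none is given. The profile gives CesA4 and CesA8-B, with 2 counts each, the same weight as CesA8-A, and of these 10 IDs 1 remained among the first 10 by Spearman's rho and 1 without 28 September and 1 October.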

How the data were processed

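The authors deposited raw counts per gene ID for 41335 IDs and 16 libraries, and a normalised table in which each value is a signal, the count divided by 1 factor per library. The factor was inferred from the values: 99.98% of them gave the raw count within 0.01. The single library tables held the same counts. STAR 2.4 (an aligner), HTSeq (a read counter), Trimmomatic 1.0, FastQC 1.0 and CASAVA 1.8.2 are named, per the submitters' processing notes. The sources used here give no genome build, annotation version or strand setting, and the match of P. tremula reads to the reference behind the Potri IDs was not examined. Per the labels' protocols, libraries were made from column-cleaned total RNA with the TruSeq kit.

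From the raw counts, IDs were filtered with filterByExpr (minimum count 10, minimum total 15), scaled by TMM and tested by quasi-likelihood (edgeR 4.0.16, R 4.3.3), with 1 fit of 15 libraries for the period contrasts and 1 fit of a natural cubic spline over days (3 degrees of freedom). Adjustment was by Benjamini-Hochberg over all tested IDs, with calls at 0.05. Standard errors were the log2 change over the root of F. Since filterByExpr left out 4 of the 5 genes, CesA7-A and CesA7-B are reported from the same fits without a filter, and CesA8-A from both, as a choice made after the counts were seen. Shares had a planned minimum of 20 counts per library, which no library reached for either pair, so a minimum of 1 was used. Their tests were exact permutation tests with SciPy 1.17.1. The edgeR steps were run on data simulated from IDs that passed the filter, so the fits without a filter were not covered. The outcome of that run is not given here and is no support for the calls above.

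In the 15 libraries, with 719419 to 6729131 counts, 3 counts corresponded to 0.61 to 3.76 CPM per library. Alternatives were RLE, upper quartile and no scaling, DESeq2 1.42.0, limma 3.58.1 on log2 of the authors' normalised signal plus 1, other period limits, other splines and left-out libraries. The genes named are the 5 members and the 10 IDs most like their mean profile (log2 CPM, prior count 2). Lists of other wall genes and of leaf markers could not be drawn by name, since no annotation of the IDs was used here, so the labelled tissue was not checked against markers, and no sequence is shown. The members and lists were chosen with earlier results of these data known.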

Additional observations from a re-analysis of the deposited data

Results flagged for a closer look

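Each gene was screened in each period for a library far from the rest (Dixon's criterion at the 95% level, 15 sets of values), and 2 sets had one. Sets in which every value was 0 are among the 15 but could not be screened. About 1 in 20 sets would by chance if values were normal, which counts near 0 are not. Both were CesA8-B with a single count among zeros, a pattern that always meets the criterion: 0.222 CPM on 5 August in the early period, and 0.215 CPM on 22 September in the late period.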

How the results depend on the processing

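Over 15 results and 329 alternatives, 287 kept their direction and their side of the threshold. For CesA8-A, the other scalings, period limits, splines, left-out libraries and DESeq2 were run on the filtered IDs only. Its unfiltered late against early call was thus not tried without 28 September and 1 October or under those other changes. Most lost calls were those of CesA8-A in the filtered fit. Its late against early rise of 1.16 log2 units was no longer called with period limits 1 date earlier (0.90), without 28 September and 1 October (0.83), with only the 11 deeper libraries (2449021 counts or more, 0.83) or with DESeq2 (1.04, adjusted p = 0.0522), and leaving out 1 library gave 0.92 to 1.40 log2 units. Over all alternatives its adjusted p ran from 0.00042 to 0.0954. Its late against middle rise lost its call with no filter (0.89), RLE scaling (0.89), upper quartile scaling (0.69), limits 1 date later (0.85), without the last 2 dates (0.61), with the deeper libraries (0.55) and with DESeq2 (0.88). That call also ended in 6 of 15 fits without 1 library, namely 2, 5, 11, 26 or 28 September or 1 October, with a range of 0.77 to 1.09. Its time course lost its call with no filter (1.48), upper quartile scaling (1.24), without the last 2 dates (0.84) and with the deeper libraries (0.81), and ranged from 1.24 to 2.13 without 1 library. Its middle against early change turned to -0.023 with limits 1 date earlier (0.04 to 0.44 without 1 library).

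CesA7-B kept its late against early, late against middle and time course calls in every fit without 1 library, with 2.81 to 3.96, 2.77 to 3.81 and 4.19 to 7.83 log2 units. They ended without the last 2 dates (1.23, 1.18 and 1.44) and with only those deeper libraries (1.24, 1.04 and 1.30), which leave out those dates too. Its middle against early change of 0.04 turned to -0.061 with RLE scaling and -0.062 with DESeq2, and ranged from -0.35 to 0.54 without 1 library. The late against early change of CesA7-A turned to 0.69 with library totals alone and ranged from -0.44 to 0.047 without 1 library. DESeq2 gave no adjusted p for its middle against early change. Apart from the left-out libraries, the cause was not tested. The late minus early share of CesA7-A ranged from -46.3 to -27.6 percentage points without 1 library, and the middle minus early share from -14.2 to 10.8. Library totals alone move the median late against early change of the 15583 IDs that passed the filter to 0.92, and relative to that median CesA8-A changed by 1.16, against 1.15 with TMM. Between alternatives, the number of IDs called from early to middle went from 709 to 100 with limits 1 date earlier, 105 with limits 1 date later and 3797 with library totals alone. No paired analysis was possible because the labels give no replicate numbers that periods share. Depth limits CesA4 and CesA8-B to a statement of their counts.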
